A study of Mus musculus with 27 samples.

Results

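The ileal epithelium of mice given 3 µg/kg TCDD was compared with that of mice given vehicle, across all genes. The samples were chosen by their labelled dose alone, which gave 3 mice at 3 µg/kg (mice 50, 51 and 52) and 3 vehicle mice (mice 2, 3 and 4), 6 of the 27 mice in the series. All were male C57BL/6 mice gavaged with sesame oil, with or without TCDD, at 4 d intervals over 28 d, and the lining of the distal ileum was scraped off for RNA-Seq on postnatal day 56. The mice carry no transgene or deletion by their labels. The study's methods state that mice were co-housed and fasted before collection, and the cage and the hour of collection of each mouse are not given in the sources used here. Values are CPM, the reads on a gene for each 1 M reads of the normalized library size. CPM is not scaled by gene length, so levels are compared between mice and not between genes.

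TCDD (2,3,7,8-tetrachlorodibenzo-p-dioxin) is a ligand of the aryl hydrocarbon receptor (AhR), which binds DNA with its partner ARNT at dioxin response elements and induces genes of xenobiotic metabolism such as *Cyp1a1*. Its repressor, AHRR, is itself an AhR target. The circadian clock is built from transcription factors of the same bHLH-PAS family. BMAL1 (encoded by *Arntl*) with CLOCK or NPAS2 activates the *Per*, *Cry*, *Nr1d* and *Dbp* genes through E-boxes, the PER and CRY proteins block that activation, and NR1D1 and NR1D2 repress *Arntl* and *Nfil3*. In the intestine, transcripts of nutrient transporters cycle with the time of day.

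At 3 µg/kg, 185 of the 16741 genes tested were differentially expressed (1.11%), with 108 induced and 77 repressed. *Cyp1a1* had the largest increase. Among genes with a mean of at least 1 CPM over the 6 mice, the next in size were the clock genes *Dbp*, *Nr1d1*, *Tef*, *Per3*, *Nr1d2* and *Ciart*, and the clock genes *Nfil3* and *Arntl* were among the most repressed. The exporter gene *Abcc2*, the cytochrome P450 gene *Cyp2u1* and the sugar genes *Slc2a5* and *Pck1* were also induced. Repressed genes included glycosyltransferases of the mucosal surface (*B3galt5*, *B3gnt7*, *Fut2*), the tyrosine-degrading enzyme *Tat* and the glycolytic regulator *Pfkfb3*. Calls required an adjusted p no higher than 0.05 together with a change of 1.5-fold or more. The higher genes were 0.645% and the lower genes 0.46% of those tested, and the adjusted p alone passed 285 genes (1.7%). The median change was 1.92-fold among induced and 2.102-fold among repressed genes. Changes of at least 4-fold were measured for 15 induced and 13 repressed genes. The median log2 fold change over all genes tested was 0.00. In 184 of the 185 genes the 3 treated mice lay on one side of all vehicle mice, whereas 24.5% of all genes tested showed such a separation. The exception was the immunoglobulin gene *Ighg2b*, where vehicle mouse 4 had 14.4 CPM and treated mouse 52 had 16.9 CPM. Just inside the limit lay *Maoa* at 1.503-fold and just outside it *Tle1* at 1.497-fold. On the p side, *Ppargc1a* had an adjusted p of 0.04999 and *Chac1* one of 0.0507. Of the called genes, 33 belonged to the gene lists described below and 152 did not. Scaling by library size alone, without TMM factors, gave 204 genes, of which 46.1% were higher at 3 µg/kg, in place of 58.4%. Without vehicle mouse 2 or 4, or treated mouse 51 or 52, 90, 73, 101 and 69 genes were called.

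**Figure D1:**
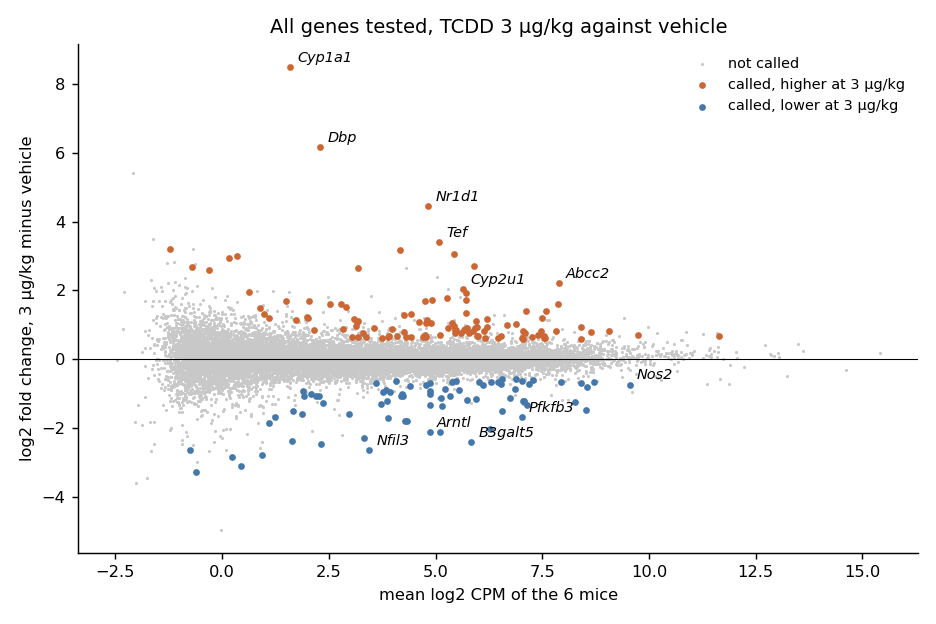
Each point is 1 of the 16741 genes tested, with the mean log2 CPM of the 6 mice on the x axis and the log2 fold change at 3 µg/kg TCDD minus vehicle on the y axis. The 108 genes called higher are orange and the 77 called lower are blue, and *Cyp1a1* (8.49) and *Dbp* (6.16) lie above all other called genes.

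Vehicle mice had 13.14 to 14.44 M reads counted on genes and treated mice 13.22 to 15.26 M, and 44.99% to 47.64% of uniquely aligned reads fell on no counted feature. Enterocyte markers were abundant in both groups (summed level 10670 to 11920 CPM in vehicle mice and 11540 to 13640 CPM in treated mice), and 0 of their 8 members were called. Across 16 marker lists of intestinal and other cell types, 0 members were called at the thresholds. All 5 tuft cell markers tested were higher in each treated mouse than in each vehicle mouse (12.4% of all genes were), with a median log2 fold change of 0.65 and a summed level of 57.9 to 69.1 CPM against 34.5 to 49.9 CPM. So were 6 of 10 enteroendocrine markers, against the same 12.4% (median log2 fold change 0.43). The smooth muscle list overlapped (26.0 to 111.2 CPM in vehicle mice, 34.1 to 138.2 CPM in treated mice). Treated mouse 52 stood apart, with counts on all 6 markers of the exocrine pancreas (675 in all, 44.2 CPM) where the other 5 mice had 0. Its part in the results was not tested beyond leaving the mouse out, which gave 69 called genes, 55 higher and 14 lower, and 67 of these were among the 185. Each library carries a sequence index, and some indexes recur among the mice of the series. First and second uses of an index were counted here in order of dose. Whether they were separate pools is not stated in the sources used here. By this count all 3 vehicle mice fall in the first use and all 3 treated mice in the second, and the effects of index use and of TCDD cannot be told apart. With index use as a covariate, which rests on the 1 µg/kg mice alone, 6 genes were called (*Cyp1a1*, *Dbp* and *Per3* higher and *Tmem252*, *Slc30a1* and *Leo1* lower). In a scraping, more cells of a type and more RNA per cell cannot be told apart.

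*Cyp1a1* (ENSMUSG00000032315, chromosome 9, 57687928 to 57703824, + strand of GRCm38) encodes the monooxygenase most used as a marker of AhR activation. It had 3, 0 and 2 counts in vehicle mice 2, 3 and 4, and 180, 925 and 886 counts in treated mice 50, 51 and 52. These correspond to 0.21, 0.00 and 0.14 CPM against 14.2, 64.7 and 57.3 CPM. The groups are far apart, and mouse 50 was the lowest of the treated mice. Over the summed counts (5 against 1991) the ratio at equal library size was 383, with an exact 95% interval of 164 to 1180 that covers counting error only. edgeR's fit gave a log2 fold change of 8.49 (SE 0.75, adjusted p = 9.92e-07), an estimate that depends on the prior count at such low vehicle levels.

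The other AhR target genes changed less. *Cyp1b1*, a second P450 of this family, had 2.39, 1.25 and 1.11 CPM in vehicle mice and 2.75, 5.46 and 7.04 CPM in treated mice, a 3.24-fold induction (adjusted p = 0.0112). Its lowest treated mouse, mouse 50, lay close to the highest vehicle mouse, and the call was lost without vehicle mouse 4 or without mouse 52. *Ahrr*, the receptor's repressor, had 2.53, 2.27 and 2.63 CPM in vehicle mice and 5.98, 5.67 and 6.01 CPM in treated mice. The 3 treated mice hardly differed from each other, and the induction was 2.37-fold (log2 fold change 1.24, SE 0.17, adjusted p = 0.000774). In the 12 mice given 0.01 to 0.3 µg/kg, *Ahrr* ran from 2.904 to 3.835 CPM. These levels were already above every vehicle mouse and below every mouse at 3 µg/kg. In all, 3 of the 9 members tested of the AhR target list were called, all 3 higher, where 1.11% of all genes were called. In 7 of the 9 each treated mouse was above each vehicle mouse (12.4% of all genes), and in 1 each was below (12.1%). Between 1 and 3 were called under each alternative, with 1 left when index use was a covariate. *Tiparp*, a poly-ADP-ribose polymerase that limits AhR signaling, was at 39.2 ± 3.7 CPM in vehicle mice and 36.4 ± 1.9 CPM in treated mice (SD, n = 3 each, adjusted p = 0.832). The quinone reductase *Nqo1* was at 18.0 ± 1.0 and 20.1 ± 1.1 CPM (adjusted p = 0.804). *Xdh*, xanthine dehydrogenase, was at 728 ± 38.4 and 589 ± 45.1 CPM, with an adjusted p of 0.507. *Cyp1a2* and *Aldh3a1* did not pass the filter on low counts. Within the UDP-glucuronosyltransferase 1A locus, a group assembled after the values were seen, *Ugt1a7c* (1.80-fold, adjusted p = 0.000786) and *Ugt1a5* (2.28-fold, adjusted p = 0.0228) were called higher. Of all genes, 0.645% were called higher. In 5 of its 6 tested members each treated mouse was above each vehicle mouse (12.4% of all genes). The members share exons, so the split of reads between them is uncertain. Of the 6 genes for the receptor and its chaperones and of the 13 NRF2 targets, 0 were called.

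Promoters of the 3 called AhR targets are shown because each holds the 5-base core of the dioxin response element, GCGTG, on either strand. The sequences are RefSeq's for GRCm38.p6, the 250 bases before the transcription start, counted back from -1, 5′ to 3′ on the gene's strand, with the core in capitals. RefSeq's *Cyp1a1* start lies inside the gene model given above. *Cyp1a1* is read from chr9:57697363-57697612 on the + strand, *Ahrr* from chr13:74292332-74292581 on the - strand and *Cyp1b1* from chr17:79715062-79715311 on the - strand.
Cyp1a1: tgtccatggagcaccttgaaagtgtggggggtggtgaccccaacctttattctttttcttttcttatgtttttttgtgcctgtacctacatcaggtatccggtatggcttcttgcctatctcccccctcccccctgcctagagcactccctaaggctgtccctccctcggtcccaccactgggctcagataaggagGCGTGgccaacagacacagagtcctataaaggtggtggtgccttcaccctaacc
Ahrr: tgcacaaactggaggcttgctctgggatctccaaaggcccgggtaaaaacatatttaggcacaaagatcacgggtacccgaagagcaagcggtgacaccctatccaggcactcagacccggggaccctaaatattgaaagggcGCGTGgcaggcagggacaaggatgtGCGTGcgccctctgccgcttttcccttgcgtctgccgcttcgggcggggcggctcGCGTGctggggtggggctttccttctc
Cyp1b1: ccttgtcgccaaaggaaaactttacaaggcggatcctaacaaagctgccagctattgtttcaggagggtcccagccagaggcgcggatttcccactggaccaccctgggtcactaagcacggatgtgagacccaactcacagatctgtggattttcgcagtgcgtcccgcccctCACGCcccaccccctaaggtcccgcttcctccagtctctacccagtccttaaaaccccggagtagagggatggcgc
The core begins at base -54 in *Cyp1a1*, at bases -107, -82 and -27 in *Ahrr*, and at base -76 in *Cyp1b1*, where it is on the opposite strand. Of all 32851 promoters of this length, 28.2% hold this core, so a match describes the sequence and is not a binding site.

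**Figure D2:**
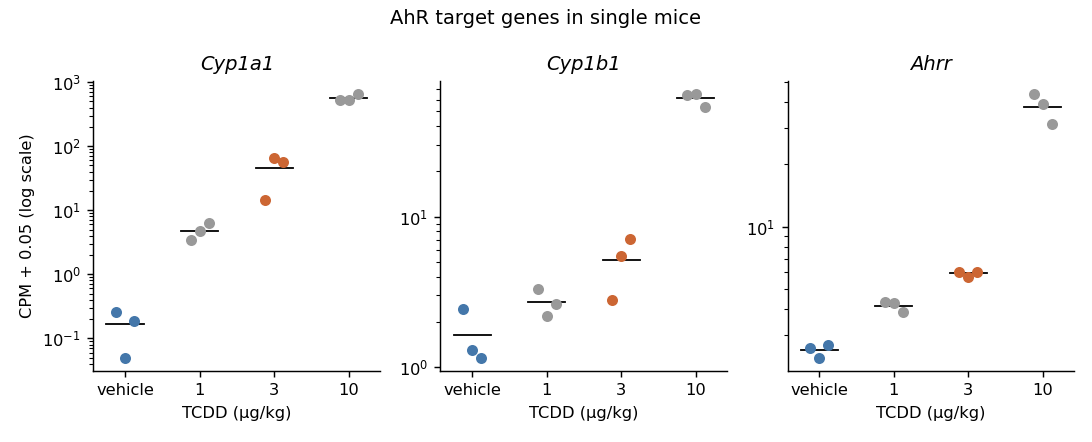
Each point is 1 mouse and each line the mean of 3, with TCDD dose on the x axis and CPM plus 0.05 on a log y axis; vehicle is blue, 3 µg/kg orange and the neighbouring doses grey. *Cyp1a1* rose from at most 0.21 CPM in vehicle mice to 14.2 to 64.7 CPM in treated mice, and *Cyp1b1* and *Ahrr* were higher at 10 µg/kg than in any mouse at 3 µg/kg.

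Clock genes held the largest increases after *Cyp1a1* among genes of at least 1 CPM. Of 21 clock genes, 13 were called, 9 higher and 4 lower, against 1.11% of all genes. Like the other gene lists, the clock lists were chosen with earlier results of these data known. The list of core repressors held 6 genes that rose and 1 that fell, *Cry1*. All 3 called output genes rose. The activator list, which also holds the D-box repressor *Nfil3*, had 3 genes that fell (*Arntl*, *Npas2* and *Nfil3*). *Dbp* (ENSMUSG00000059824, chromosome 7, 45705088 to 45710203, + strand), a PAR bZIP factor that carries clock timing to metabolic genes, had 0.63, 0.59 and 0.35 CPM in vehicle mice and 30.2, 32.5 and 50.4 CPM in treated mice. Its summed counts were 22 against 1628, a ratio of 71.2 (exact 95% interval 46.8 to 113.8). This interval, like those of *Ciart* and *Dusp9* below, covers counting error only and not the spread between mice. The fitted log2 fold change of *Dbp* was 6.16 (SE 0.98, adjusted p = 0.00144). *Nr1d1* (chromosome 11, 98767932 to 98775333, - strand), which encodes the heme receptor REV-ERBα, had 5.28, 11.4 and 2.77 CPM in vehicle mice and 138.4, 143.7 and 140.9 CPM in treated mice. The treated mice were within a few percent of each other, and the induction was 21.9-fold (adjusted p = 0.000974). Its relative *Nr1d2* rose 8.30-fold, with 12.3 to 18.0 CPM in vehicle mice and 113.5 to 142.5 CPM in treated mice.

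Further repressor and output genes followed the same order of groups. *Per3* had 5.98, 5.36 and 6.64 CPM in vehicle mice and 36.0, 57.2 and 68.1 CPM in treated mice, an 8.97-fold induction (adjusted p = 0.000774). *Tef*, a relative of *Dbp*, had 12.2, 11.6 and 7.61 CPM against 97.3, 105.0 and 128.2 CPM (10.5-fold, adjusted p = 0.000786). *Per2* rose 3.41-fold (20.9 ± 1.1 to 71.4 ± 12.9 CPM). *Cry2* rose 2.49-fold and *Usp2*, a deubiquitinase that is a clock output, 1.77-fold. *Ciart*, an inhibitor of the CLOCK-BMAL1 pair, was low throughout, with 16 summed counts in vehicle mice and 134 at 3 µg/kg, a ratio of 8.05 (exact 95% interval 4.78 to 14.5). Its call was lost without vehicle mouse 2 or 4 or treated mouse 52, that of *Cry2* without vehicle mouse 4 or treated mouse 51 or 52, and that of *Usp2* without treated mouse 52. *Per1* (28.2 ± 1.8 and 59.8 ± 11.6 CPM, adjusted p = 0.0639) and *Hlf* (0.66 ± 0.06 and 2.098 ± 1.043 CPM, adjusted p = 0.125) separated the groups without passing the threshold. *Bhlhe40*, *Bhlhe41*, *Wee1*, *Clock* and *Rora* were not called, with log2 fold changes between -0.28 and 0.24.

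The clock genes that fell were *Arntl*, *Npas2*, *Nfil3* and *Cry1*. *Arntl* (chromosome 7, 113207465 to 113314126, + strand) had 56.7, 65.3 and 59.1 CPM in vehicle mice and 15.6, 14.3 and 11.8 CPM in treated mice, a 4.36-fold repression (log2 fold change -2.12, SE 0.33, adjusted p = 0.00139). *Nfil3*, a repressor that competes with DBP at D-boxes, had 30.5, 26.5 and 23.7 CPM against 4.64, 4.41 and 3.88 CPM (6.24-fold lower, adjusted p = 0.00299). Neither gene showed any overlap between the groups. *Npas2* fell 2.28-fold (adjusted p = 0.0342), a call lost when any 1 of the 6 mice was left out. *Cry1*, a core repressor, fell from 45.9 ± 4.7 to 18.3 ± 1.6 CPM (2.51-fold, adjusted p = 0.0133). Outside the lists, and picked after its value was seen, *Cipc*, another inhibitor of CLOCK, rose 2.53-fold (33.1 ± 1.4 to 83.6 ± 7.0 CPM, adjusted p = 0.000786). Between 8 and 14 of the 21 genes were called with each mouse left out and under other normalizations, filters and tests, the fewest without treated mouse 52. With index use as a covariate 2 were called (*Dbp* and *Per3*).

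**Figure D3:**
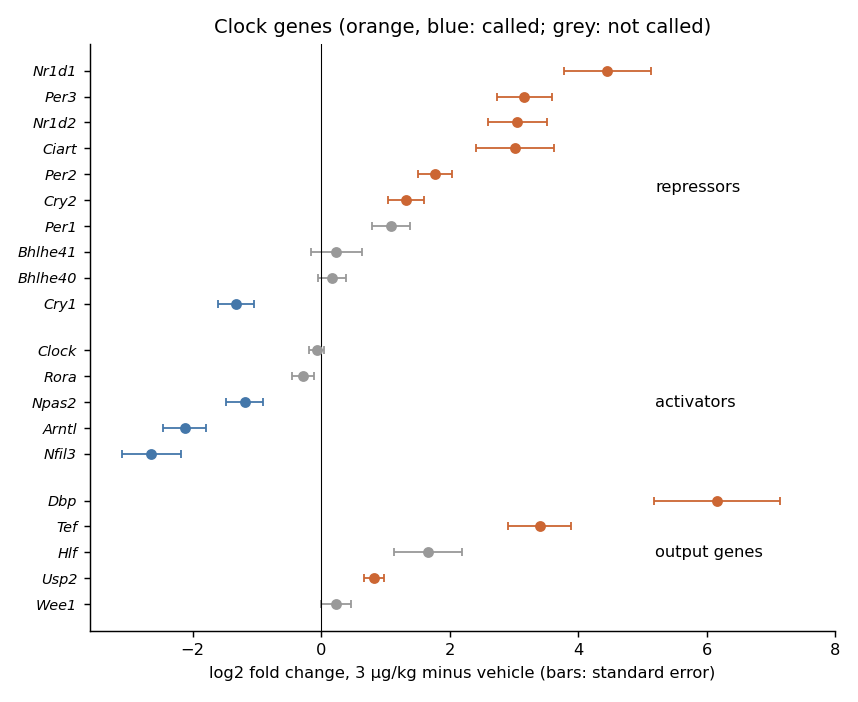
Points give the log2 fold change (3 µg/kg TCDD minus vehicle, x axis) of 20 of the 21 clock genes in 3 groups of roles. Bars give the standard error derived from edgeR's F test. Called genes are orange (higher) or blue (lower), with 6 of 10 repressors and 3 of 5 output genes higher and 3 of 6 genes of the activator list, *Nfil3* included, lower (5 of the 6 plotted).

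The promoters of 2 clock genes are shown because each holds an element that BMAL1 or the PAR bZIP factors are known to bind. These are the E-box CACGTG and the D-box TTATGTAA, searched on both strands of the same 250 bases (RefSeq, GRCm38.p6, motif in capitals). *Ciart* is read from chr3:95882229-95882478 and *Per3* from chr4:151044666-151044915, both on the - strand.
Ciart: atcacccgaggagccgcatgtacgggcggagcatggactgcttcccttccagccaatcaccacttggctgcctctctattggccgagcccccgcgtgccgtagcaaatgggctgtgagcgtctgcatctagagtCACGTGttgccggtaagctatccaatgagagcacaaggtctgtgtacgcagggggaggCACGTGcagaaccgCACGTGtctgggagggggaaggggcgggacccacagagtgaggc
Per3: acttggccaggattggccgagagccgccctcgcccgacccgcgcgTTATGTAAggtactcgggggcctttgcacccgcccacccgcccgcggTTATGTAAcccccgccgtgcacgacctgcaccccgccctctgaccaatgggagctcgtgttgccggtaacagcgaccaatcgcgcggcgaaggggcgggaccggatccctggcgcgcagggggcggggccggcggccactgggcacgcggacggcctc
*Ciart* holds 3 E-boxes, beginning at bases -116, -58 and -44, and *Per3* holds 2 D-boxes, at -205 and -158. An E-box lies in 6.02% and this D-box in 0.819% of all promoters of this length. Of 22 promoters of the clock lists, 6 (27.3%) hold an E-box and 1 (4.55%), that of *Per3*, holds this D-box. Most clock promoters thus hold neither element in these 250 bases. Among the promoters of called genes, an E-box lies in 15 of 114 (13.2%) for induced genes and in 8 of 71 (11.3%) for repressed genes, and GCGTG in 43.9% and 36.6%. This D-box lies in 1 of 114 (0.877%) and 0 of 71, near its share of all promoters. Only 133 of the 185 called genes had a promoter entry, and these shares carry no test.

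Genes of foreign-compound transport and of P450 metabolism outside the AhR battery were induced in single members. *Abcc2* (chromosome 19, 43782192 to 43840740, + strand), the apical exporter MRP2 that moves conjugates into the lumen, had 91.4, 144.9 and 98.2 CPM in vehicle mice and 481.4, 509.1 and 559.7 CPM in treated mice, a 4.64-fold induction (adjusted p = 0.00140). *Cyp2u1*, a fatty acid hydroxylase, had 24.5, 28.5 and 21.3 CPM against 104.9, 95.8 and 102.3 CPM (4.08-fold, adjusted p = 0.000786). In both genes every treated mouse was more than 3-fold above the highest vehicle mouse. They were the only called members of their lists, 1 of 18 P450 genes and 1 of 20 conjugating enzymes and exporters, whose medians were 0.47 and 0.35 on the log2 scale. Over all genes tested, 1.11% were called. *Cyp3a44* was at 7.31 ± 2.50 and 8.22 ± 1.06 CPM (adjusted p = 0.941), and reads shared with near-identical *Cyp3a* genes make its count uncertain.

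Of the sugar genes, 2 of 13 were called and both rose, *Slc2a5* and *Pck1*, where 1.11% of all genes were called. *Slc2a5*, the fructose transporter GLUT5, had 28.1, 28.0 and 23.7 CPM in vehicle mice and 107.9, 100.2 and 97.5 CPM in treated mice (3.83-fold, adjusted p = 0.0370). *Pck1*, the gatekeeper of gluconeogenesis, had 36.7, 19.3 and 19.4 CPM against 69.8, 227.8 and 195.7 CPM, a 6.55-fold induction (adjusted p = 0.0481) with wide spread among treated mice. *Slc5a4a*, a member of the sodium-glucose cotransporter family, had 3.03, 5.80 and 2.49 CPM against 12.6, 27.7 and 30.6 CPM (6.30-fold, adjusted p = 0.0230). The calls of all 3 genes were sensitive to single mice. That of *Slc2a5* was lost when any 1 of the 6 mice was left out, that of *Pck1* without any of 5 mice and that of *Slc5a4a* without any of 4. In the sugar list, 8 of 13 members were higher in each treated than in each vehicle mouse, against 12.4% of all genes. The glucose transporter *Slc2a2* (log2 fold change 2.64, adjusted p = 0.0635) and *Slc5a1* (0.78, adjusted p = 0.0575) were among those that did not pass.

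Of 19 genes for amino acid and peptide uptake, 2 were called, where 1.11% of all genes were, and 14 were higher in each treated than in each vehicle mouse, where 12.4% of all genes were. *Slc43a2*, a transporter of large neutral amino acids, had 611.5, 766.9 and 628.4 CPM in vehicle mice and 1065, 1105 and 1117 CPM in treated mice (1.64-fold, adjusted p = 0.0206). *Slc6a20a*, the proline transporter SIT1, rose 1.63-fold, from 132.1 ± 24.0 to 215.6 ± 11.1 CPM (adjusted p = 0.0165). The call of *Slc43a2* was lost without any of 5 mice and that of *Slc6a20a* without any of 4. The list's median log2 fold change was 0.37, against 0.00 for all genes. The peptide transporter *Slc15a1* had a log2 fold change of 1.19 (adjusted p = 0.0657). Enzymes that use amino acids were also called, named here after their values were seen. Glutamate dehydrogenase (*Glud1*) rose 2.29-fold and alanine aminotransferase (*Gpt*) 1.52-fold. Over all 286 solute carriers tested, a group assembled after the values were seen, 8 were called higher and 3 lower. Of all genes, 0.645% were called higher and 0.46% lower. *Slc6a4*, the serotonin transporter, rose 1.81-fold (32.7 ± 4.4 to 59.0 ± 7.6 CPM, adjusted p = 0.00264). *Slc40a1*, the iron exporter ferroportin, fell 2.201-fold from 161.0 ± 29.0 to 73.2 ± 20.1 CPM (adjusted p = 0.0185). It was the only called gene of 12 for vitamin and iron uptake, a call lost without vehicle mouse 2 or 4 or treated mouse 51 or 52. Its median in the 12 mice given 0.01 to 0.3 µg/kg was 113.9 CPM, already below the lowest vehicle mouse (128.1 CPM).

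**Figure D4:**
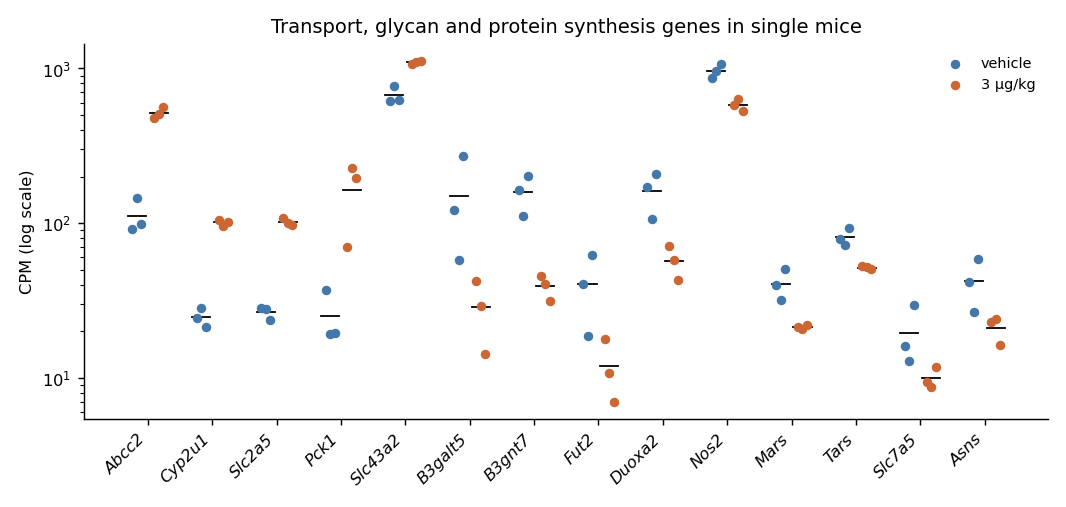
Each point is 1 mouse (vehicle blue, 3 µg/kg TCDD orange) and each line the mean of 3, with CPM on a log y axis and genes along the x axis. For all 14 genes the groups do not overlap. *Abcc2* (481.4 to 559.7 CPM in treated mice) to *Slc43a2* are higher and *B3galt5* to *Asns* lower than in vehicle mice. The genes were picked with their values known, and the groups do not overlap in 24.5% of all genes tested.

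Repressed genes included enzymes that build surface glycans. *B3gnt7*, which extends keratan sulfate and mucin chains, had 163.4, 111.1 and 200.6 CPM in vehicle mice and 45.4, 40.6 and 31.3 CPM in treated mice (4.05-fold lower, adjusted p = 0.00382). *B3galt5*, a galactosyltransferase of type 1 chains, had 120.9, 58.0 and 273.2 CPM against 42.1, 29.2 and 14.3 CPM (5.31-fold lower, adjusted p = 0.0279). *Fut2*, the fucosyltransferase that fucosylates the intestinal surface, had 40.3, 18.6 and 62.4 CPM against 17.9, 10.7 and 6.98 CPM (3.44-fold lower, adjusted p = 0.0165). Vehicle mice varied several-fold in *B3galt5* and *Fut2*, mouse 3 being the lowest and mouse 4 the highest, and both calls were lost without vehicle mouse 2 or 4 or treated mouse 51 or 52. In the 12 mice given 0.01 to 0.3 µg/kg, the medians of *B3gnt7*, *B3galt5* and *Fut2* were 80.4, 48.5 and 16.75 CPM. Each median was already below the lowest vehicle mouse. In a group of 70 glycosyltransferases and sulfotransferases assembled after the values were seen, 5 were called lower (*Chst4* and *B4galt1* as well) and 1 higher (*B4galt6*). Over all genes, 0.46% were called lower and 0.645% higher. The median log2 fold change of the group was -0.02.

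Other large decreases fell in varied roles. *Tat*, tyrosine aminotransferase, had 74.1, 63.2 and 77.2 CPM in vehicle mice and 20.1, 16.7 and 13.2 CPM in treated mice (4.31-fold lower, adjusted p = 0.00678). *Pfkfb3*, a kinase that raises the glycolytic activator fructose 2,6-bisphosphate, had 242.4, 219.5 and 236.1 CPM against 66.4, 79.3 and 71.0 CPM (3.22-fold lower, adjusted p = 0.00496). The groups of both genes did not overlap, and the call of *Tat* was lost without treated mouse 52. In the 12 mice given 0.01 to 0.3 µg/kg, *Tat* ran from 13.5 to 54.7 CPM and *Pfkfb3* from 61.95 to 156.0 CPM, below every vehicle mouse in both genes. *Tmem252*, a membrane protein gene, had 21.9, 20.8 and 22.2 CPM against 3.54, 5.18 and 4.65 CPM (4.83-fold lower, adjusted p = 0.000862), and was called under each of 14 alternatives. *Dhrs9*, a retinol dehydrogenase, fell 3.60-fold, *Mal*, a protein of apical membrane sorting, 3.24-fold, and *Adra2a*, the α2A-adrenergic receptor, 3.02-fold. The immediate early gene *Ier5* fell 2.23-fold (91.4 ± 3.8 to 41.0 ± 3.1 CPM), the only call among 20 such genes. *Acadl*, a long-chain acyl-CoA dehydrogenase, fell 1.57-fold, the only call among 20 PPARA targets of fat oxidation. Over all genes tested, 1.11% were called. *Dusp9*, a phosphatase of MAP kinases, was induced from very low counts (15 against 118, ratio 7.56, exact 95% interval 4.40 to 13.9), while *Dusp6* fell 2.30-fold. The calls of *Adra2a*, *Acadl* and *Ier5* were lost without vehicle mouse 4 or treated mouse 52, that of *Ier5* also without mouse 50, and those of *Dhrs9* and *Mal* without any 1 of the 6 mice except vehicle mouse 3.

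Genes of tRNA charging were grouped after their values were seen. Of 20 cytosolic aminoacyl-tRNA synthetase genes, 16 were lower in each treated than in each vehicle mouse, where 12.1% of all genes were. Calls were made for 4 (*Mars*, *Cars*, *Yars* and *Tars*), where 1.11% of all genes were called. The median log2 fold change of the 20 was -0.36. *Mars*, for methionine, had 39.6, 31.8 and 50.5 CPM in vehicle mice and 21.5, 20.8 and 22.1 CPM in treated mice (1.90-fold lower, adjusted p = 0.00321). *Asns*, asparagine synthetase, fell 2.01-fold (adjusted p = 0.0454), and the transporters *Slc7a1* and *Slc7a5* and the factor *Atf5* fell 1.68-fold, 1.95-fold and 1.84-fold. *Trib3*, a pseudokinase induced with many of these genes in amino acid stress, went the other way, from 3.19 ± 0.35 to 9.77 ± 0.72 CPM (3.06-fold higher, adjusted p = 0.0196). *Herpud1*, a member of the endoplasmic reticulum degradation machinery, rose 1.71-fold (log2 fold change 0.77, adjusted p = 0.0467). The calls of *Trib3* and *Herpud1* were lost when any 1 of the 6 mice was left out, that of *Herpud1* also with library size scaling, and that of *Asns* without any of 5 mice and in a fit of the 6 mice alone. In the unfolded protein response list of 21 genes, 2 were thus higher and 1 (*Asns*) lower, and *Atf4*, *Ddit3* and *Hspa5* had log2 fold changes of -0.13, -0.12 and -0.14 without a call.

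Among host defense genes, 2 of 14 antimicrobial genes were called, both lower, where 1.11% of all genes were called. The median log2 fold change of the 14 was -0.70. *Nos2*, inducible nitric oxide synthase, had 870.2, 963.0 and 1068 CPM in vehicle mice and 578.1, 636.0 and 532.5 CPM in treated mice (1.66-fold lower, adjusted p = 0.0440). *Duoxa2*, which matures the epithelial oxidase DUOX2, fell 2.83-fold from 161.5 ± 51.7 to 57.2 ± 14.0 CPM (adjusted p = 0.0240). *Ccl20*, a chemokine that draws CCR6-bearing lymphocytes, had 4.79, 9.54 and 6.37 CPM against 1.34, 1.12 and 1.49 CPM (5.21-fold lower, adjusted p = 0.04999). In the 12 mice given 0.01 to 0.3 µg/kg, the medians of *Nos2*, *Duoxa2* and *Ccl20* were 690.3, 94.8 and 4.28 CPM. Each median was already below the lowest vehicle mouse, though the ranges overlapped those of vehicle mice. The calls of *Nos2* and *Ccl20* were lost when any 1 of the 6 mice was left out, and that of *Duoxa2* without any of 4. *Nos2* and *Duoxa2* were the calls among 14 antimicrobial genes, whose summed level ran from 20520 to 32360 CPM in vehicle mice and from 13700 to 22980 CPM in treated mice. *Cd38*, an NAD-consuming enzyme, was picked after its value was seen and fell 2.80-fold (626 ± 115 to 223.5 ± 32.0 CPM). Of 165 immunoglobulin genes tested 4 were called, all lower, where 0.46% of all genes were called lower. The summed level of plasma cell markers was 1523 to 2081 CPM in vehicle mice and 1260 to 1307 CPM in treated mice. The part of that difference in the immunoglobulin calls was not tested. Among 20 interferon-stimulated and 11 MHC class II genes, 0 were called.

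Of 9 ileal bile acid genes tested 1 was called, where 1.11% of all genes were. In 5 of the 9 each treated mouse was above each vehicle mouse, against 12.4% of all genes. *Cyp27a1*, sterol 27-hydroxylase, rose 2.198-fold (19.1 ± 6.6 to 42.0 ± 8.7 CPM, adjusted p = 0.0256) and was the only call among 9 genes, lost without vehicle mouse 2 or 4 or treated mouse 51 or 52. *Slc51a*, a subunit of the basolateral bile acid exporter, had an adjusted p of 0.00570 with a 1.465-fold change, under the fold limit. Its partner *Slc51b* (252.7 ± 12.9 and 241.7 ± 23.3 CPM), the apical importer *Slc10a2* and the hormone gene *Fgf15* did not pass. *Fgf15* had 54.9, 69.5 and 47.9 CPM in vehicle mice and 123.7, 126.8 and 98.0 CPM in treated mice, so the groups did not overlap, but its adjusted p was 0.421.

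For sterol synthesis (23 genes), fatty acid synthesis (14), fat and cholesterol absorption (21), glucocorticoid-responsive genes (12), heat shock chaperones (18), junctions (14), p53 targets (10), regional identity factors (16) and the mitochondrial genome (10), 0 members were called. Their median log2 fold changes lay between -0.08 and 0.25. All 21 fat and cholesterol absorption genes had a log2 fold change above 0, from 0.05 to 0.88, 7 were higher without overlap (12.4% of all genes were), and 3 had an unadjusted p under 0.05. Of 23 cell cycle and DNA replication genes 0 were called, though 22 had a log2 fold change below 0 and 11 were lower in each treated mouse than in each vehicle mouse (12.1% of all genes were). An unadjusted p under 0.05 was reached by 1 of them. The cyclin D1 gene *Ccnd1* was the lowest of these, at 106.1 to 118.7 CPM against 153.8 to 198.1 CPM (log2 fold change -0.61, adjusted p = 0.248). In the hypoxia and glycolysis list of 14, *Egln3*, a prolyl hydroxylase, rose 1.65-fold, a call lost without vehicle mouse 2 or 4 or treated mouse 50 or 52, and *Pfkfb3* fell. These were its only calls, where 1.11% of all genes were called.

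The 3 µg/kg mice were also set directly against the neighbouring doses, which needs no vehicle mouse. Against 1 µg/kg, 1 of 16741 genes was called in edgeR's test (0.00597%), *Cyp1a1*, and 770 genes (4.6%) had an unadjusted p under 0.05. *Cyp1a1* had 3.32, 4.68 and 6.30 CPM in mice 41, 43 and 44 at 1 µg/kg, all below the 14.2 to 64.7 CPM in treated mice, a 9.56-fold difference (log2 fold change 3.26, SE 0.44, adjusted p = 0.00231). The call was lost without mouse 41, in DESeq2, in a fit of the 6 mice alone and with index use as a covariate. Of the 185 genes, 38 had an unadjusted p under 0.05 in this contrast, and a p that misses the threshold does not show that the doses act alike. Between 3 and 10 µg/kg, 7 genes were called (0.0418%), all higher at 10 µg/kg, and 1090 (6.51%) had an unadjusted p under 0.05. *Ahrr* rose 6.45-fold, from 5.88 ± 0.19 to 38.0 ± 6.3 CPM (adjusted p = 2.68e-11). *Cyp1b1* rose 11.8-fold, from 5.08 ± 2.17 to 61.0 ± 6.3 CPM, and *Cyp1a1* 12.4-fold, from 45.4 ± 27.3 to 564.2 ± 72.4 CPM. The remaining 4 were *Dgkh* (a diacylglycerol kinase, 1.97-fold), *Ildr1* (1.90-fold), *Slc6a7* (1.52-fold) and the unnamed model 2610035D17Rik (2.21-fold). Clock genes were not among these calls. Between 3 and 10 µg/kg *Dbp*, *Nr1d1* and *Arntl* had log2 fold changes of 0.16, 0.07 and -0.19, with adjusted p of 0.991, 0.995 and 0.980. DESeq2 called 21 genes at 10 against 3 µg/kg and 18 were called without mouse 58. At 3 against 1 µg/kg DESeq2 called 1 gene, *Ugt1a7c*, named after its result was seen, and not *Cyp1a1*.

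The mice of the other doses were set against the midpoint between the vehicle and 3 µg/kg means in each of the 185 genes, as a description with no test, since the genes were chosen on 6 other mice. In 11 of the 12 mice given 0.01 to 0.3 µg/kg, 19 to 113 genes (median 32) lay on the 3 µg/kg side. Mouse 14, given 0.01 µg/kg, had 136 genes on that side. Its *Nr1d1* (149.0 CPM), *Arntl* (15.7 CPM), *Nfil3* (4.47 CPM) and *Slc2a5* (95.6 CPM) were close to the levels at 3 µg/kg and its *Dbp* was 27.6 CPM, whereas its *Cyp1a1* was 0 CPM, as in vehicle mouse 3. At 1 µg/kg, mouse 41, whose library index was in its first use as in the vehicle mice, had 168 genes on the 3 µg/kg side, and mice 43 and 44, of the second use, had 139 and 152.

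**Figure D5:**
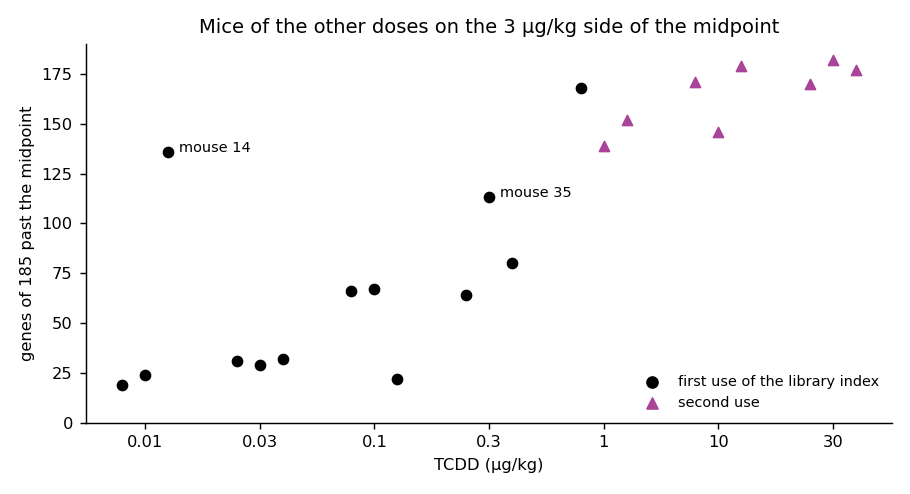
Each point is 1 mouse of the other doses, with TCDD dose on the x axis and, on the y axis, the number of the 185 called genes in which that mouse lay on the 3 µg/kg side of the midpoint between vehicle and 3 µg/kg means; circles mark the first and triangles the second use of a library index. Mouse 14 at 0.01 µg/kg (136 genes) lies above all other mice given 0.3 µg/kg or less, and mouse 41 at 1 µg/kg has 168 genes.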

How the data were processed

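RNA-Seq was performed on scrapings of distal ileal epithelium from 27 male mice, 3 per dose. The authors trimmed reads with Trimmomatic 0.33, checked them with FastQC 0.11.3 and aligned them to GRCm38 with TopHat2 2.1.0. For each mouse the authors deposited unnormalized read counts for Ensembl genes. The submitters' processing notes list HTSeq 0.6.1. Its strand setting is not given in the sources used here, so overlapping and antisense genes may share reads.

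Here, rows that name no gene were left out (44.99% to 47.64% of unique reads in the 6 mice fell on no feature, and 0.61% to 1.00% were ambiguous). Of 46078 genes listed, 45143 had a symbol and position in GENCODE M21 and 30714 a count. edgeR 4.0.16 (R 4.3.3) filtered genes with filterByExpr (minimum count 10, total 15), leaving 16741, scaled by TMM and fitted 9 groups of 27 mice by quasi-likelihood with no covariate. Adjusted p-values (Benjamini-Hochberg) are over all genes tested. Standard errors (SE) were derived as the absolute log2 fold change over the square root of edgeR's F statistic. Calls needed an adjusted p no higher than 0.05 and a 1.5-fold change, the study's fold limit; its P1(t) criterion is not recomputed here. Depth was 13.14 to 15.26 M counts per mouse, so abundant genes have little sampling error and *Cyp1a1* in vehicle mice (5 counts) has much. Pairs of mice within the 2 groups differed beyond sampling noise (chi-square per degree of freedom 6.99 to 16.2). Mice are separate animals that share cages, which the fit does not model. The p-values rest on a spread between mice estimated over all 27 mice in 9 groups, not on the 6 compared mice alone.

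Samples, gene lists, marker lists and tests were chosen with earlier results of these data known, and groups added later are named as such. Named genes were the 12 largest called increases and decreases with a mean of at least 1 CPM and no overlap (leaving out immunoglobulin genes, pseudogenes and unnamed models), up to 6 called members per list, the 2 most abundant members of lists without calls, 10 genes named whatever their test (*Cyp1a1*, *Cyp1b1*, *Ahrr*, *Tiparp*, *Nqo1*, *Fgf15*, *Slc10a2*, *Slc51a*, *Slc51b* and *Cyp3a44*), and up to 5 calls per direction against neighbouring doses. Other genes were named after their values were seen, and some genes are not reported here. Alternatives were DESeq2 1.42.0, other scalings and filters, the compared mice alone, index use as a covariate, no fold limit and leaving out each mouse. Leaving out mouse 14 was added after seeing the data. The procedure was tested on simulated data. Python 3.11.15, pandas 2.3.3, scipy 1.17.1 and matplotlib 3.10.9 were used.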

Additional observations from a re-analysis of the deposited data

Results flagged for a closer look

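Mice outside the comparison showed part of the pattern at 3 µg/kg. Mouse 14, at 0.01 µg/kg, lay on the 3 µg/kg side of the midpoint in 136 of the 185 called genes, and mouse 35, at 0.3 µg/kg, in 113, against 19 to 80 genes in the other 10 mice given 0.3 µg/kg or less. Both mice had 0 CPM of *Cyp1a1*. Mouse 35 had 88.2 CPM of *Nr1d1* and 4.94 CPM of *Dbp*, above all vehicle mice and below all mice at 3 µg/kg. Leaving mouse 14 out of the fit gave 208 called genes, of which 184 were among the 185.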

How the results depend on the processing

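No paired analysis was possible because mouse numbers are unique to each mouse and the groups share none. Against the 185 genes called at 3 µg/kg versus vehicle, 308 were called with no filter on low counts, 278 with DESeq2, 344 when only the 6 mice compared were fitted, 285 with no minimum fold change and 6 with index use as a covariate. Leaving out 1 of these 6 mice gave 69 to 224. Of the 44 named genes called, 43 or 44 kept their call under other scalings, filters and tests, 17 to 37 with 1 of the 6 mice compared left out, 44 without mouse 14 and 4 with the index covariate (*Cyp1a1*, *Dbp*, *Per3* and *Tmem252*), and none of the 44 changed direction. Without treated mouse 52, 17 kept it. For 3 against 1 µg/kg, the call count was 2 with no filter, 0 with the index covariate and 0 with only the 6 mice, and 0 to 2 with 1 mouse left out. For 10 against 3 µg/kg it was 32 with no filter, 21 with DESeq2 and 12 with only the 6 mice, and 4 to 18 with 1 mouse left out. The AhR list went from 3 called to 1, and the clock lists from 13 to 2, with the index covariate, and to 2 to 3 and 8 to 12 with 1 mouse left out.

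Genes without a call changed sign in their log2 fold change as follows. With library size scaling, *Hmgcs1* was at -0.015, *Cldn7* at -0.023 and *Klf5* at -0.018. With the index covariate, *Hmgcs1* was at -0.326, *Apob* at -0.113, *Sgk1* at -1.593, *Irf7* at -0.044, *Cd74* at -0.147, *mt-Co1* at -0.144, *mt-Cytb* at -0.016, *Fgf15* at -1.919, *Slc10a2* at -0.224 and *Ildr1* at -0.157. Without vehicle mouse 3, *Hmgcs1* was at -0.053, *Fasn* at -0.097, *Cldn7* at -0.004 and *Irf7* at -0.009. *Klf5* was at -0.008 without vehicle mouse 2 and at -0.017 without treated mouse 51. Without treated mouse 52, *Fasn* was at -0.262 and *Slc51b* at 0.014. With 1 mouse left out, the value ran up to 0.122 for *Hmgcs1*, 0.403 for *Fasn*, 0.055 for *Cldn7*, 0.141 for *Irf7* and 0.078 for *Klf5*, and down to -0.111 for *Slc51b*. The causes were not tested.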

Other observations

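Counts on 6 exocrine pancreas markers (*Cela2a*, *Cela3b*, *Cpa1*, *Ctrb1*, *Prss2* and *Pnlip*) numbered 675 in mouse 52 at 3 µg/kg. Of the other 26 mice 12 had any, the highest being mouse 68 at 30 µg/kg with 31. *Ctrb1* alone had 224 counts in mouse 52.

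Several large changes fell on genes outside the lists that were named after their values were seen. *Mpp4* rose 6.08-fold from 0.26 ± 0.16 CPM. *Tns4*, a focal adhesion protein gene, rose 3.05-fold, from 133.7 ± 16.4 to 407.5 ± 13.3 CPM (SD, n = 3 each), and *Tifa*, an adaptor of NF-κB signaling, fell 2.50-fold, from 223.8 ± 0.9 to 89.6 ± 9.7 CPM. *Thra*, a thyroid hormone receptor gene next to *Nr1d1* that overlaps it on the opposite strand, rose 1.76-fold, and the reads of these genes may not be fully separable without strand.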
